A study of Arabidopsis thaliana with 3 samples.

Results

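The 10 genes described here encode enzymes that make flavonols and anthocyanins in Arabidopsis thaliana, with the glutathione transferase that anthocyanins need to reach the vacuole. They were taken by locus code from the 30271 genes of the deposited tables, and all 10 had a value in every library. They are CHS (AT5G13930), CHI (AT3G55120), F3H (AT3G51240), F3'H (AT5G07990), FLS1 (AT5G08640), DFR (AT5G42800), LDOX (AT4G22880), UF3GT (AT5G54060), 5GT (AT4G14090) and TT19 (AT5G17220). The choice uses no measured value, but earlier results of the same data were known when it was drawn up.

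RNA came from whole seedlings at 9 days of age. The mutant groups, T12 and T34, are populations from crossing gip1 (allele GABI_213D01) with gip2 (allele FLAG_36406). The control group, WT, is the cross Ws x Col-0, the accessions in which these insertion collections were made. The mutated genes encode small subunits of the complexes in which gamma-tubulin starts new microtubules, and the design text of the series gives the populations root growth defects of increasing severity. The labels do not say what T12 and T34 stand for, how many seedlings went into a library or how the replicates were grown, so the p-values speak of the spread among these libraries, which may be technical. Each group had 3 libraries.

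Flavonoids are made from coumaroyl-CoA, the product of the general phenylpropanoid pathway. CHS and CHI build the flavanone skeleton, F3H and F3'H hydroxylate it, and the resulting dihydroflavonols are shared between branches. FLS1 turns them into flavonols, which absorb ultraviolet light, while DFR and LDOX turn them into coloured anthocyanidins. Glycosyltransferases then decorate the pigments, which are stored in vacuoles of young leaves and stems. In seedlings the late genes of the anthocyanin branch are classically switched on by complexes of a MYB protein, a bHLH protein and the WD40 protein TTG1, and the early and flavonol genes by the related MYB11, MYB12 and MYB111.

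Several properties of the libraries bear on all values below. Library totals were 20963358 to 30438933 reads. Ribosomal RNA took 95.7% of the reads of WT replicate 2, 22.5% and 49.1% of those of WT replicates 1 and 3, 0.951% to 1.77% in T12 and 45.0% to 49.4% in T34. Reads of other nuclear genes were therefore 645093 in WT replicate 2, against 12336970 and 6282456 in WT replicates 1 and 3 and 10054220 to 15270092 in the mutant libraries. A single read was worth 11.7 normalized counts in WT replicate 2, 0.614 and 1.27 in WT replicates 1 and 3, and 0.561 to 0.837 in the mutants. The labels list the library used here as WT replicate 1 under both WT and T34, and the library used as T34 replicate 3 under no group. Both were placed by the tables that hold them, and results are also given without them. GIP1 is not analysed here, and GIP2 had 0 to 5 reads in every library, so the mutated genes gave no check of the labels. In bulk RNA, fewer cells of a type and less RNA per cell cannot be told apart.

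The DNA before these genes is shown because the members moved together and because several of the known regulators described further on also moved. The windows are the 200 bases before the annotated gene start in RefSeq's annotation of TAIR10.1, which holds all 10 loci. The deposited files themselves give no coordinates. Capitals mark the G-box, CACGTG, which reads the same on both strands and is a binding site of bZIP and bHLH proteins. It was present in the window of 2 of the 10 genes, DFR and UF3GT, and in 5.6% of the windows of all 27443 protein-coding nuclear genes. The same windows were searched on both strands for the AC element ACCTACC, its variant ACCTAAC and the further variant ACCAACC, motifs that MYB proteins of the phenylpropanoid pathway are known to bind. Any of these was present in the window of 0 of the 10 genes and of 5.1% of all genes. The E-box CANNTG, which includes the G-box, was present for 7 of the 10 and for 47.3% of all genes, and TATAAA on either strand for 5 of the 10 and for 41.0%.
DFR, chr5:17166033-17166232, minus strand: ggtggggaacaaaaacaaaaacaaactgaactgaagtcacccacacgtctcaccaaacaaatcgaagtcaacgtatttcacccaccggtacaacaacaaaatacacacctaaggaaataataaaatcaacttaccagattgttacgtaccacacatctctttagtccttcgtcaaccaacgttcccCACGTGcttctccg
UF3GT, chr5:21938397-21938596, minus strand: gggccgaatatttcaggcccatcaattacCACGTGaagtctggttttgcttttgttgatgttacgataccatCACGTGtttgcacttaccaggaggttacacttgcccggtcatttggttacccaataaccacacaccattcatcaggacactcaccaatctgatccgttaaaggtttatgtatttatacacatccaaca
In the DFR window the motif covered bases -14 to -9 from the gene start, and in the UF3GT window it occurred at bases -171 to -166 and again at -128 to -123.

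Gene starts in this annotation lie well before the start codon, so a second search covered the 500 bases before the first annotated start codon, which can include 5' UTR. It looked again for the G-box and these 3 AC elements on both strands. None of the matches in these genes overlapped another. The G-box occurred before 5 of the 10 genes (CHI, F3H, DFR, LDOX and UF3GT) and before 9.3% of all genes. An AC element occurred before 5 (CHS, CHI, F3H, DFR and 5GT) and before 11.6% of all genes. Both kinds occurred before 3 (CHI, F3H and DFR) and before 1.2% of all genes. The following sites of 30 bases have the match in capitals, written on the strand of the gene, so that an AC element on the other strand appears as its reverse complement.
CHS AC element, chr5:4488607-4488636, plus strand: ccgtccatctaACCTACCacactctcatct
CHS AC element, chr5:4488685-4488714, plus strand: tttccaaatacACCTAACttgtttagtaca
CHI G-box, chr3:20431541-20431570, minus strand: aaaacgaaagtaCACGTGcttacacatcca
CHI AC element, chr3:20431498-20431527, minus strand: taactattgctACCTACCcttctctcttct
DFR G-box, chr5:17166006-17166035, minus strand: ccggttggtactCACGTGaccggcagcttc
DFR AC element, chr5:17166015-17166044, minus strand: cgtgcttctccGGTTGGTactcacgtgacc
LDOX G-box, chr4:12006494-12006523, minus strand: agtagaggtgaaCACGTGgagacacgctta
5GT AC element, chr4:8124060-8124089, minus strand: cttaccatggtGGTTGGTtgcggtcttgtg
These sites show that CHI and DFR hold both kinds of match within 200 bases of the start codon, whereas CHS holds AC elements there and no G-box. No match was found before F3'H, FLS1 or TT19, which says only that these letters are not in the window. A match is a string of letters and not a measured binding site.

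**Figure D1:**
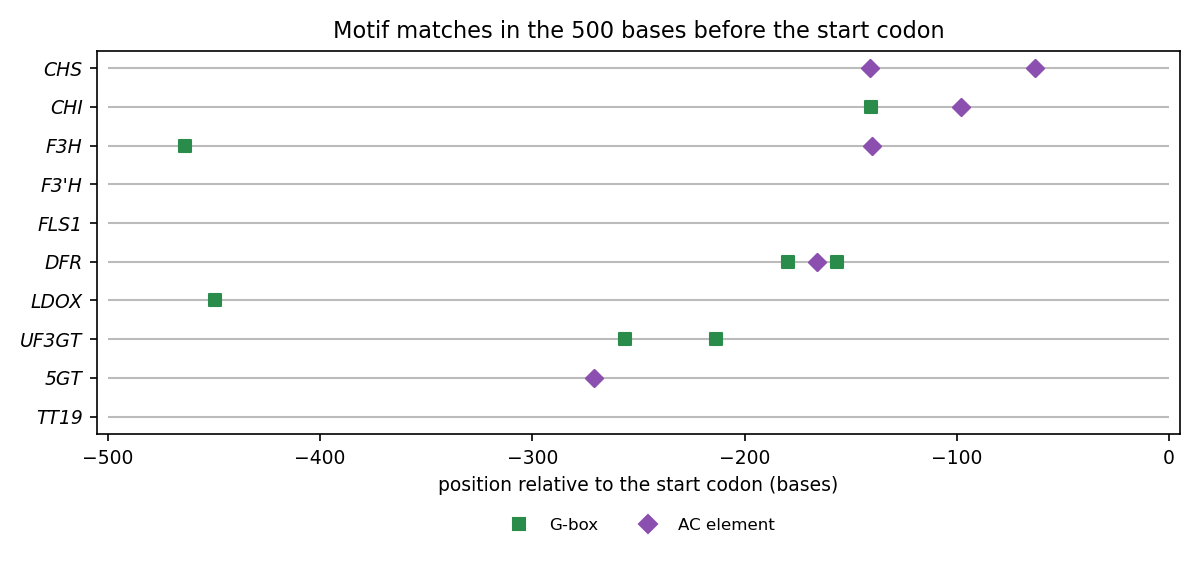
Matches of the G-box (squares) and of the 3 AC elements (diamonds) in the 500 bases before the start codon of each of the 10 genes, with distance from the start codon in bases on the horizontal axis. The matches of CHI, DFR and CHS lie within 200 bases of the start codon, and F3'H, FLS1 and TT19 have none.

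Of the 10 genes, 9 passed the minimum of 10 normalized counts in at least 3 libraries and were tested, and all 9 were higher in T12 than in WT and higher in T34 than in WT. Normalized counts are read counts divided by a factor for the library. The test was limma-trend on log2(normalized count + 1), and a gene was called at an adjusted p under 0.05. Among all 20871 genes tested, 23.1% were called higher and 17.0% lower in T12, and 25.2% were called higher and 20.0% lower in T34. The median log2 fold change of the 9 genes was 4.53 in T12 and 5.28 in T34, beside 0.06 over all genes tested in either comparison. For each of the 9 genes every T12 and every T34 library lay above every WT library, as did 28.3% of all genes tested for T12 and 30.9% for T34. The comparisons share their WT libraries. Several of these genes passed the minimum only through the mutant libraries, so their counts are not support for one another.

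**Figure D2:**
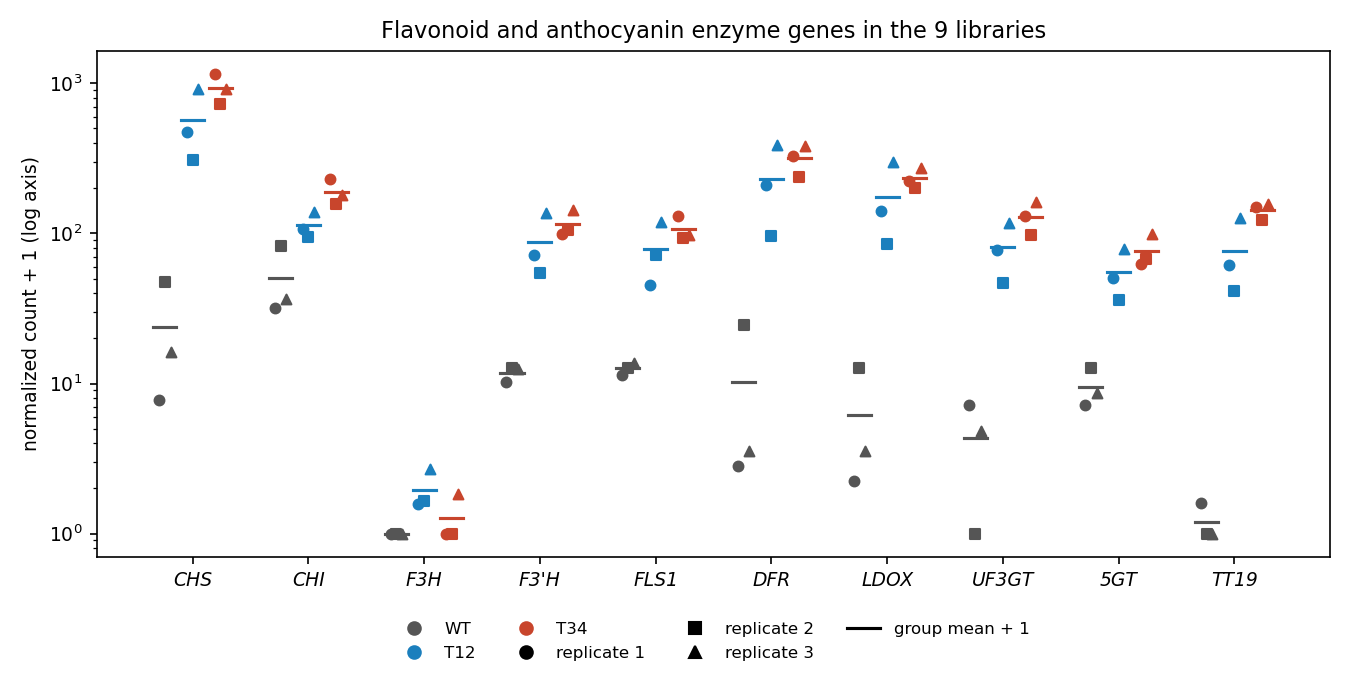
Normalized count plus 1 on a log axis for each of the 10 genes, with a point for each of the 9 libraries and a bar at the mean of each group's 3 libraries plus 1. The T12 and T34 libraries lie above the WT libraries for every gene but F3H, whose values stay below 2 normalized counts.

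CHS, chalcone synthase, carries out the first committed step and was the most abundant of the genes in both mutants. Its normalized counts were 6.76, 46.8 and 15.3 in WT replicates 1 to 3, 470, 308 and 919 in T12, and 1157, 730 and 911 in T34. The lowest mutant library was thus well above the highest WT library, which was the shallow replicate 2. The rise was 28.1-fold in T12 (95% interval 10.8 to 72.9, adjusted p = 0.000297) and 50.4-fold in T34 (19.4 to 131, adjusted p = 9.49e-05). Without WT replicate 2 the rise of CHS was 45.5-fold and 81.6-fold. Over pooled reads, 27 in WT and 2944 in T12, the ratio was 53.5 with an exact counting interval of 36.7 to 81.3. Folds from the fit are on the log2(value + 1) scale, which understates changes from low levels, and weight the 3 libraries equally. Not every fold of the fit lies below its pooled ratio, and that of UF3GT, given further on, lies above it.

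CHI, chalcone isomerase, closes the ring of the CHS product and showed the smallest rise. Its normalized counts were 30.7, 81.8 and 35.7 in WT, 106, 94.3 and 137 in T12, and 228, 156 and 178 in T34. The gap between the highest WT library and the lowest T12 library was narrow, and the WT value nearest to the mutants came from 7 reads. The log2 fold change was 1.29 ± 0.34 (SE, adjusted p = 0.0153) in T12 and 2.02 ± 0.34 (adjusted p = 0.0013) in T34. The call in T12 was lost without WT replicate 3 (1.13, adjusted p = 0.0526), without T12 replicate 3 (1.14, adjusted p = 0.0569) and without the 2 libraries of unclear label (1.02, adjusted p = 0.072).

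F3H, flavanone 3-hydroxylase, makes the dihydroflavonols and was the exception. It had 0 reads in each WT library, 1, 1 and 3 reads in T12, and 0, 0 and 1 in T34, and was not tested. The limit that a count of 0 allows, 3 reads, is 35.1 normalized counts in WT replicate 2 and 1.84 and 3.82 in replicates 1 and 3. In RefSeq's annotation of TAIR10.1 an lncRNA gene on the other strand, AT3G51238, covers 1588 of the 1681 bases of F3H, or 94.5%. Among 72 protein-coding genes of the tables with at least 90% of their length covered by a gene on the other strand, 63 (87.5%) had a median over the 9 libraries under 5 normalized counts. That share was 25.1% of 20493 genes with no gene on the other strand and 13.2% of 6039 genes covered in part. The library kit marks strand, but the strand setting of the counting is not given in the sources used here. No value of AT3G51238 was used here, so whether the counting treated it as a gene is not known. The part of the overlap in the low count of F3H was not tested, and that count is not read as absence of the transcript.

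F3'H, flavonoid 3'-hydroxylase, adds the second ring hydroxyl that distinguishes quercetin and cyanidin from their simpler relatives. Its normalized counts were 9.21, 11.7 and 11.5 in WT, 71.3, 53.2 and 136 in T12, and 98.1, 105 and 143 in T34. The WT value of replicate 2 rests on 1 read, and all mutant libraries were far above the WT libraries. The rise was 6.92-fold in T12 (95% interval 4.12 to 11.6, adjusted p = 0.00021) and 9.77-fold in T34 (5.81 to 16.4, adjusted p = 6.41e-05).

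FLS1, the main flavonol synthase, draws dihydroflavonols into the flavonol branch. Its normalized counts were 10.4, 11.7 and 12.8 in WT, 44.5, 71.2 and 118 in T12, and 130, 92.6 and 96.3 in T34. The WT value of replicate 2 is again 1 read, all mutant libraries were above the WT libraries, and the T12 libraries spread more widely than those of T34. The rise was 5.81-fold in T12 (95% interval 3.46 to 9.76, adjusted p = 0.000352) and 8.42-fold in T34 (5.02 to 14.1, adjusted p = 9.5e-05).

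DFR, dihydroflavonol reductase, opens the anthocyanin branch and competes with FLS1 for substrate. In WT it had 3, 2 and 2 reads, or 1.84, 23.4 and 2.55 normalized counts. It reached 208, 94.9 and 388 normalized counts in T12 and 329, 236 and 381 in T34. The 2 reads of the shallow WT replicate 2 therefore set most of the WT mean of 9.26 ± 12.2 (SD, n = 3). The rise was 31.6-fold in T12 (95% interval 9.32 to 107, adjusted p = 0.000986) and 49.5-fold in T34 (14.6 to 168, adjusted p = 0.000406). It was 62.4-fold and 97.7-fold without WT replicate 2, and over pooled reads the ratios of DFR were 84.3 (exact counting interval 40.8 to 210) and 112 (54 to 278).

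LDOX, leucoanthocyanidin dioxygenase, forms the coloured anthocyanidin. It had 2, 1 and 2 reads in WT, or 1.23, 11.7 and 2.55 normalized counts, 140, 84.6 and 300 normalized counts in T12, and 221, 200 and 272 in T34. As for DFR, the WT values rested on single reads and the mutant libraries were all far above them. The rise was 33.1-fold in T12 (95% interval 12.3 to 88.8, adjusted p = 0.000277) and 49.6-fold in T34 (18.5 to 133, adjusted p = 0.000119). The rise was 54.7-fold and 81.9-fold without WT replicate 2, and over pooled reads the ratios of LDOX were 89.4 (exact counting interval 38.2 to 276) and 115 (49 to 355).

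UF3GT and 5GT add sugars to the anthocyanin. UF3GT was at 6.14, 0 and 3.82 normalized counts in WT, 77.0, 45.5 and 117 in T12, and 129, 96.4 and 160 in T34. It rose 23.1-fold in T12 (95% interval 8.11 to 66.1, adjusted p = 0.00072) and 38.9-fold in T34 (13.6 to 111, adjusted p = 0.000243). Without WT replicate 2, which held no UF3GT read, the rise was 12.8-fold and 21.6-fold. Over pooled reads the ratios of UF3GT were 15.6 (exact counting interval 9.03 to 29.6) and 24.4 (14.2 to 46.2), below the folds of the fit. The anthocyanin 5-O-glucosyltransferase gene 5GT was at 6.14, 11.7 and 7.65 in WT, 49.7, 35.3 and 78.0 in T12, and 61.7, 66.5 and 98.8 in T34. It rose by less, 5.7-fold in T12 (95% interval 3.27 to 9.92, adjusted p = 0.000556) and 8.14-fold in T34 (4.67 to 14.2, adjusted p = 0.000154). Genes on the other strand overlap 230 bases (AT4G14100) and 217 bases (AT4G06175) of 5GT, so some of its reads may belong to them.

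TT19 encodes the glutathione transferase that carries anthocyanins towards the vacuole, and it was the member with the lowest count in WT among those tested. A single read was found in WT, in replicate 1, giving 0.61, 0 and 0 normalized counts. T12 had 60.5, 40.4 and 126 and T34 had 149, 123 and 155 normalized counts. Over pooled reads the ratio to WT was 193 in T12 (exact counting interval 34.5 to 7650) and 353 in T34 (63.1 to 14000). The log2 fold change was 5.87 ± 0.42 in T12 (adjusted p = 1.16e-05) and 6.92 ± 0.42 in T34 (adjusted p = 4.19e-06), and its size depends on the pseudocount because WT is near 0. A gene on the other strand, AT5G17230, overlaps 108 bases (8.7%) of TT19.

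In the fit, 4 of the 9 genes had log2 fold changes of at most 2.79 in T12 and 3.29 in T34, namely CHI, F3'H, FLS1 and 5GT. The other 5 genes, CHS, DFR, LDOX, UF3GT and TT19, had at least 4.53 and 5.28. Their 95% intervals were not all separate, since in T12 those of DFR and UF3GT overlapped those of F3'H, FLS1 and 5GT and that of CHS overlapped that of F3'H. In T34 those of DFR and UF3GT overlapped that of F3'H, and that of UF3GT also those of FLS1 and 5GT. No test of the difference between members was made. In the authors' deposited table the log2 fold changes were 1.56 (CHI) to 6.72 (TT19) in T12 and 2.31 (CHI) to 7.76 (TT19) in T34, all above 0 for the 9 genes. Without WT replicate 2 the median log2 fold change of the 9 genes was 3.68 in T12 and 4.43 in T34, and all 9 were still called in each comparison. Without the 2 libraries of unclear label it was 4.198 and 4.91, with 8 and 9 called.

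**Figure D3:**
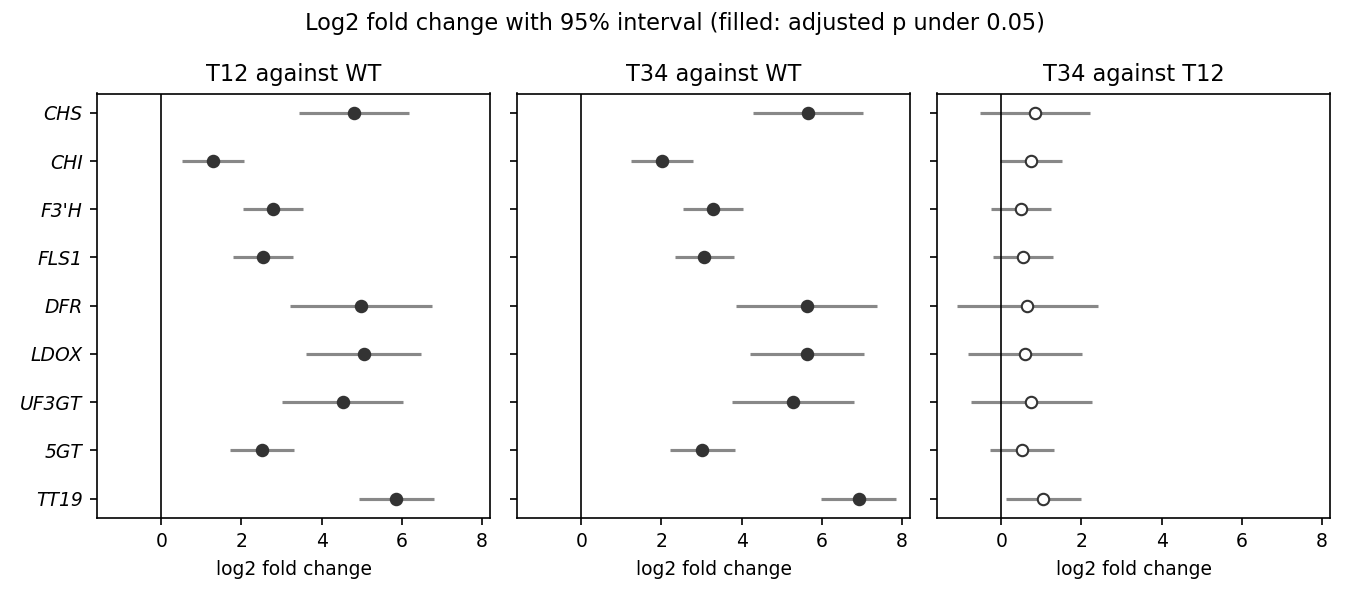
Log2 fold change of the 9 tested genes on the log2(normalized count + 1) scale, with its 95% interval, for T12 against WT, T34 against WT and T34 against T12, with filled points where the adjusted p was under 0.05. All 9 points are filled in the comparisons with WT, from 1.29 (CHI) to 5.87 (TT19) in T12 and from 2.02 to 6.92 in T34, and all are open between the mutants.

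Per kilobase of exon the order of the mean levels changed from WT to the mutants. In WT, CHI led with 44.4 ± 25.3 normalized counts per kb (SD, n = 3), a level above that of CHS by more than both SDs, followed by CHS with 13.5 ± 12.4 and FLS1 with 7.18 ± 0.71. Below them DFR, F3'H, 5GT, LDOX and UF3GT, at 6.09 to 2.01, lay within the larger SD of their neighbours in the order. TT19 followed with 0.19 ± 0.32, and F3H had no read. The order in WT depends on WT replicate 2, where CHS had 27.45 per kb from 4 reads and DFR 15.4 from 2. In WT replicates 1 and 3, CHS had 3.97 and 8.98 per kb beside 6.45 and 7.88 for FLS1, and DFR had 1.21 and 1.68, below F3'H, 5GT and UF3GT in both. In T12, CHS led with 332 ± 186 per kb, followed by DFR (152 ± 97.3), LDOX (125 ± 79.9), CHI (101 ± 19.8) and TT19 (69.1 ± 40.9). UF3GT and FLS1 followed with 48.3 ± 21.6 and 48.2 ± 23.1, then F3'H (45.0 ± 22.5), 5GT (32.9 ± 13.2) and F3H (0.64 ± 0.41), and neighbours above F3H differed by less than the larger of their SDs. In T34, CHS led with 548 ± 126, followed by DFR (208 ± 48.3), CHI (169 ± 33.0), LDOX (165 ± 26.4) and TT19 (130 ± 15.7). UF3GT (77.8 ± 19.2), FLS1 (65.6 ± 12.6), F3'H (59.8 ± 12.6), 5GT (45.9 ± 12.3) and F3H (0.19 ± 0.32) closed the order. In T34 the steps from CHS to DFR, LDOX to TT19, TT19 to UF3GT, F3'H to 5GT and 5GT to F3H exceeded both SDs, and the other steps did not exceed the larger SD.

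The direct comparison of T34 with T12 asked whether the genes differ between the mutant populations. None of the 9 genes was called by limma-trend, where 0.858% of all genes tested were called higher and 1.52% lower. The fit took its spread from all 9 libraries, WT replicate 2 among them, so scatter within WT enters these intervals. With only the groups compared in the fit, 988 of all genes were called higher and 1156 lower, and none of the 9 members. Without WT replicate 2 the counts over all genes were 898 and 1000. In the main fit the estimate was above 0 for all 9 members, beside 50.7% of all genes tested. Their median log2 difference was 0.65, beside 0.01 over all genes tested. At an unadjusted p under 0.05 there was 1 of the 9, TT19, beside 15.4% of all genes tested. TT19 was 2.07-fold higher in T34 (95% interval 1.08 to 3.98, adjusted p = 0.264), and its groups overlapped because T12 replicate 3 exceeded T34 replicate 2. CHI was 1.66-fold higher (0.972 to 2.85, adjusted p = 0.359) and was the 1 member whose T34 libraries all lay above the T12 libraries, as did those of 17.3% of all genes tested. CHI passed without WT replicate 2 (0.74 on the log2 scale, adjusted p = 0.0451) and with limma-voom on the recovered reads (0.73, adjusted p = 0.0459), while edgeR and DESeq2 called none of the 9. The intervals of the remaining 7 genes ran from below 1-fold to between 2.37-fold (F3'H) and 5.31-fold (DFR). Differences up to those sizes are thus not excluded, and the genes are not shown to be alike.

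The members' values also differed between libraries of 1 group. T12 replicate 3 had the highest value for 9 of 9 genes and T12 replicate 2 the lowest for 8 of 9, the exception being FLS1, lowest in replicate 1. The median log2 difference between T12 replicates 3 and 2 was 1.34 over the 9 genes (range 0.53 to 2.02), above 0 for 9 of 9, while the median over all genes tested was 0.002. In T34 replicate 2 was lowest for 7 of 9, replicate 3 was highest for 6 and replicate 1 for 3, and the median difference between replicates 3 and 2 was 0.44 (range 0.06 to 0.73), above 0 for 9 of 9, beside a median of -0.002 over all genes. WT replicate 2 was highest for 6 of 9 genes and lowest for 2, UF3GT and TT19, where it had no read (nor had replicate 3 for TT19). This spread within T12 and that within WT and T34 are part of the error of every comparison above, which share 1 fit. Replicates share a library, so the 9 genes are not independent measures of this spread.

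**Figure D4:**
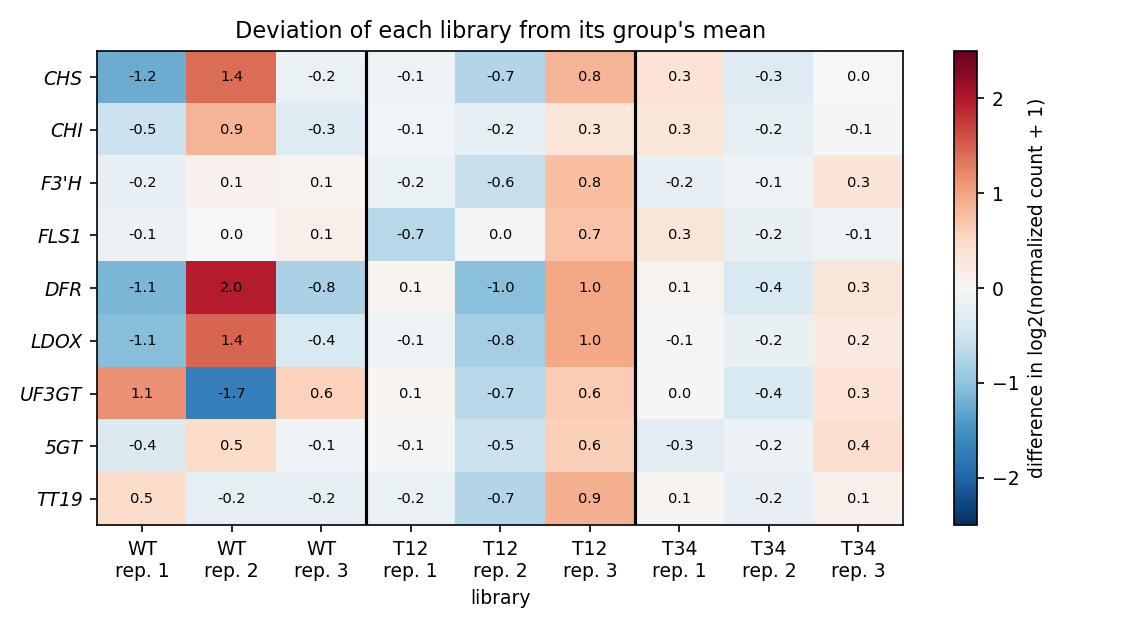
Deviation of each library from the mean of its group on the log2(normalized count + 1) scale for the 9 tested genes, in red above and in blue below the mean. T12 replicate 3 is above its group's mean for all 9 genes, and WT replicate 2 ranges from 2.0 above (DFR) to 1.7 below (UF3GT).

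The non-member genes whose profile over the 9 libraries was closest to the mean profile of the 9 members were GSTF7, BCA3, AR781, WRKY48, GSTF6, AT1G74010, VSP2, MAPKKK18, JAL33 and AT5G41740. Likeness was the root mean square difference between log2 profiles centred on each gene's mean, over 12884 genes with a mean normalized count of at least 100. The differences were 0.28 for GSTF7, a glutathione transferase, to 0.40 for AT5G41740, annotated as a disease resistance protein, with a median of 2.01 over the genes ranked. The members themselves lay at 0.57 (F3'H) to 1.21 (CHI) from their own mean. GSTF7 went from 303 ± 49.7 normalized counts in WT to 5428 ± 2130 in T12 and 6268 ± 271 in T34 (SD, n = 3). VSP2, a vegetative storage protein, went from 121 ± 49.8 to 1371 ± 100 and 2516 ± 149. GSTF6 and GSTF7 are close copies, so reads could be split between them. With a pseudocount of 16, 1 of these 10 genes stayed among the closest 10.

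Upstream of CHS, most listed genes of the general phenylpropanoid pathway rose too. PAL, C4H and 4CL enzymes turn phenylalanine into coumaroyl-CoA. Of the 9 genes listed, 8 rose in T12 and the same number in T34, none fell, and the median log2 fold change was 1.615 and 1.801. For this list and the next, the shares called higher over all genes tested were 23.1% in T12 and 25.2% in T34. PAL3 did not pass without the 2 libraries of unclear label (adjusted p = 0.0805 and 0.0542). The largest rise was that of 4CL5, from 108 ± 5.87 normalized counts in WT to 605 ± 165 in T12 (log2 fold change 2.45 ± 0.22, adjusted p = 4.02e-05) and 522 ± 140 in T34 (2.24 ± 0.22, adjusted p = 5.42e-05). PAL4 did not pass in either comparison (0.02 and 0.11). The branch to monolignols, the building blocks of lignin, had 6 of 7 genes higher in each mutant, with medians of 1.287 and 1.303. CAD5, a cinnamyl alcohol dehydrogenase, had log2 fold changes of 1.62 ± 0.25 (adjusted p = 0.000903) in T12 and 1.64 ± 0.25 (adjusted p = 0.000698) in T34, and CAD4 did not pass (0.42 and 0.23).

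Further enzymes and helpers of flavonol synthesis, 14 genes of which 11 were tested and UGT89C1 was not analysed here, had 8 higher in T12 and 8 in T34, with no gene lower. Over all genes tested, 23.1% and 25.2% were called higher. Their medians were 1.34 and 1.51. The call of FLS4 was kept in 5 of 20 alternative settings in T12 and 8 in T34. It was lost in both without WT replicate 2 (adjusted p = 0.0821 and 0.0579). UGT78D1, which adds rhamnose to flavonols, rose in T12 from 90.1 ± 45.0 normalized counts in WT to 398 ± 49.9 (log2 fold change 2.24 ± 0.30, adjusted p = 0.000435). FLS2 is a copy of the flavonol synthase gene. It had 20.3, 11.7 and 15.3 normalized counts in WT, 47.4, 35.9 and 53.3 in T12, and 122, 114 and 103 in T34. Its 3 groups were fully separate. The log2 fold change of FLS2 was 1.49 ± 0.25 in T12 (adjusted p = 0.00139) and 2.79 ± 0.25 in T34 (adjusted p = 3.15e-05). FLS2 was the 1 gene of these pathway lists called between the mutants, 1.31 ± 0.25 higher in T34 (adjusted p = 0.0333), a call kept in 12 of 20 alternative settings. FLS2 to FLS6 are copies of one another, and how reads matching several genes were counted is not given in the sources used here.

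Genes that decorate or transport anthocyanins had 6 of 8 higher in T12 and 8 of 8 in T34, with medians of 1.41 and 1.99. The shares called higher over all genes tested were 23.1% and 25.2%. SCPL10, an acyltransferase that adds sinapoyl groups, went from 22.9 ± 6.16 normalized counts in WT to 350 ± 84.6 in T12 (3.88 ± 0.23, adjusted p = 4.26e-06) and 404 ± 39.9 in T34 (4.11 ± 0.23, adjusted p = 2.97e-06). The acyltransferase genes 3AT2 (0.84, adjusted p = 0.106) and 5MAT (2.32, adjusted p = 0.0608) were those that did not pass in T12. Both passed there without WT replicate 2 (1.32, adjusted p = 0.000869, and 3.47, adjusted p = 0.000387). Without the 2 libraries of unclear label neither passed in T34 (adjusted p = 0.0775 and 0.177). For the proanthocyanidin branch, which makes seed coat tannins, 4 of 9 genes were tested. TTG2, a WRKY factor, rose by 0.93 ± 0.21 in T12 (adjusted p = 0.0064) and 1.32 ± 0.21 in T34 (adjusted p = 0.000843). TT10, an oxidase, passed in T12 by a narrow margin (0.93, adjusted p = 0.0496) and in T34 (1.097, adjusted p = 0.0232). The call of TT10 was kept in 5 of 20 alternative settings in T12 and 15 in T34, and it was lost in both without the 2 libraries of unclear label (adjusted p = 0.103 and 0.138). TT15, a sterol glucosyltransferase, fell by 1.07 ± 0.14 in T12 (adjusted p = 0.00037) and fell by 0.90 ± 0.14 in T34 (adjusted p = 0.000802). The branch enzyme BAN had at most 4.19 normalized counts in any library and the transporter TT12 at most 5.86.

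**Figure D5:**
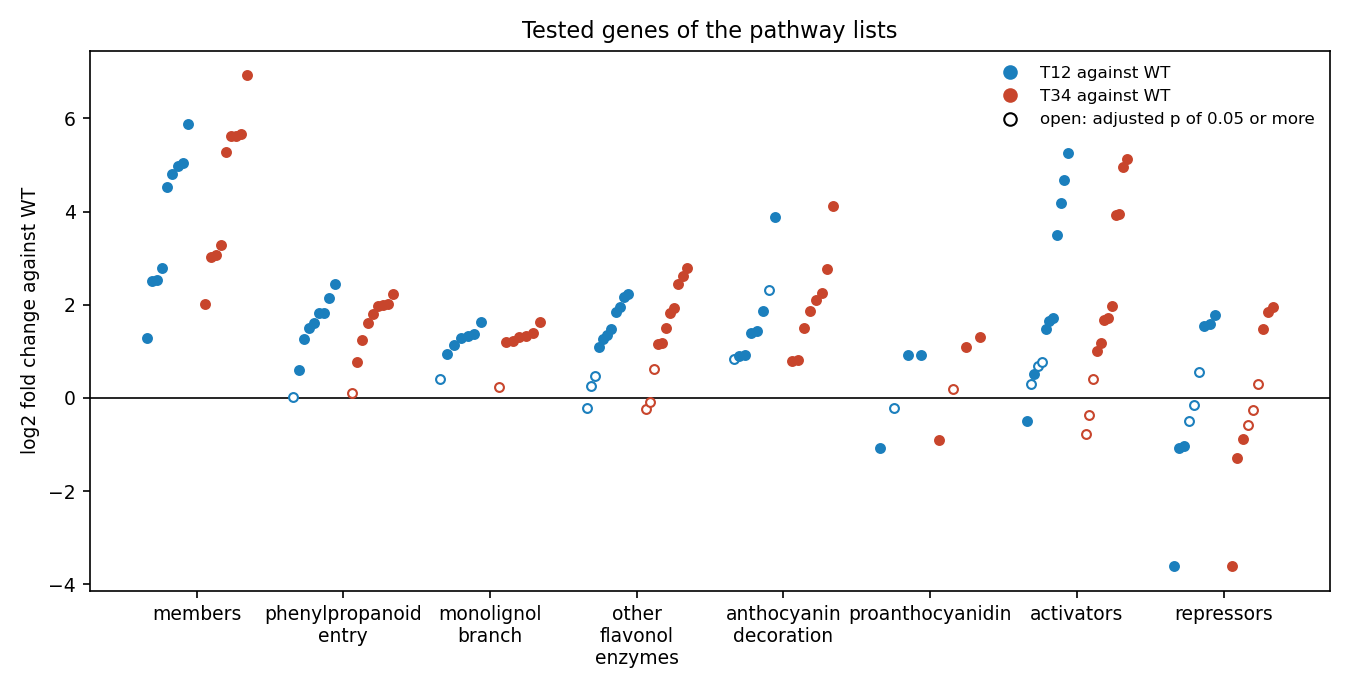
Log2 fold change against WT of every tested gene in the pathway lists, for T12 (blue) and T34 (red), with filled points where the adjusted p was under 0.05. The members reach 5.87 and 6.92, and MYBL2, the lowest point among the repressors, lies at -3.61 in T12 and -3.60 in T34.

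Among 13 known activators of the pathway, 12 were tested, 8 rose and 1 fell in T12, and 9 rose in T34. Over all genes tested, 23.1% rose and 17.0% fell in T12, and 25.2% rose and 20.0% fell in T34. PAP1, PAP2 and MYB113, MYB factors of the anthocyanin branch, were near 0 in WT. PAP1 had 1.84, 11.7 and 3.82 normalized counts in WT, 124, 130 and 176 in T12, and 195, 133 and 194 in T34. Its log2 fold change was 4.68 ± 0.47 in T12 (adjusted p = 7.96e-05) and 4.95 ± 0.47 in T34 (adjusted p = 4.72e-05), without overlap of WT and mutant libraries, and 5.27 and 5.54 without WT replicate 2. PAP2 had 1 read over the 3 WT libraries, 76 in T12 and 74 in T34, ratios of 37.3 (exact counting interval 6.49 to 1490) and 48.7 (8.47 to 1950). MYB113 had 3, 163 and 102 reads, ratios of 26.6 (8.96 to 131) and 22.4 (7.44 to 110). In the fit PAP2 (adjusted p = 0.000884 in T12 and 0.000371 in T34) and MYB113 (0.000224 and 0.000254) were called higher. PAP2, MYB113 and MYB114 are neighbouring copies, and MYB114 did not pass (0.30 in T12 and 0.40 in T34).

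The bHLH partners rose as well. TT8 had a log2 fold change of 1.66 ± 0.43 in T12 (adjusted p = 0.0129) and 1.72 ± 0.43 in T34 (adjusted p = 0.00971), GL3 of 1.71 ± 0.28 (adjusted p = 0.00115) and 1.67 ± 0.28 (adjusted p = 0.0011), and EGL3 of 0.52 ± 0.18 (adjusted p = 0.0411) and 1.00 ± 0.18 (adjusted p = 0.00159). Without the 2 libraries of unclear label TT8 no longer passed (adjusted p = 0.0559 and 0.0726), nor did EGL3 and TTG1 in T12 (adjusted p = 0.123 and 0.0686). TTG1, the WD40 partner, fell by 0.50 ± 0.14 in T12 (adjusted p = 0.0171) and was 0.37 below WT in T34 without passing (adjusted p = 0.0541). HY5 and HYH are bZIP factors of light signalling that bind G-boxes. HY5 rose by 1.49 ± 0.34 in T12 (adjusted p = 0.00774) and 1.98 ± 0.34 in T34 (adjusted p = 0.00144). HYH had 13.5, 0 and 12.8 normalized counts in WT, 245, 223 and 205 in T12, and 201, 191 and 217 in T34. The WT and mutant libraries of HYH were far apart, with 5.26 ± 0.86 in T12 (adjusted p = 0.00121) and 5.12 ± 0.86 in T34 (adjusted p = 0.00119), and 3.99 and 3.85 without WT replicate 2. Of the flavonol regulators, MYB12 rose in T34 (1.18 ± 0.31, adjusted p = 0.0133) and did not pass in T12 (0.69, adjusted p = 0.107). MYB111 did not pass in either (0.78 and -0.78), and MYB11 was too low to be tested.

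Of 10 known repressors, 9 were tested, and 3 rose and 3 fell in each mutant. Of all genes tested, 23.1% rose and 17.0% fell in T12 and 25.2% and 20.0% in T34, so these counts are no result about the list, which is given by its genes. MYBL2, a small MYB protein that blocks the activating complex, showed the largest fall. It had 584, 900 and 770 normalized counts in WT, 74.2, 67.3 and 42.6 in T12, and 68.8, 68.0 and 46.1 in T34. The lowest WT library was far above every mutant library. MYBL2 fell by 3.61 ± 0.26 in T12 (adjusted p = 1.23e-05) and fell by 3.60 ± 0.26 in T34 (adjusted p = 1e-05), and it fell by 3.47 and 3.46 without WT replicate 2. LBD39, a nitrate-responsive repressor, fell by 1.03 in T12 (adjusted p = 0.0125) and 1.29 in T34 (adjusted p = 0.00341). SPL9 fell in T12 alone by the threshold (-1.08, adjusted p = 0.0124, against -0.58 and 0.113 in T34), and LBD38 in T34 (-0.89, adjusted p = 0.0112, against -0.49 and 0.113 in T12). The difference between the mutants did not pass for SPL9 (adjusted p = 0.465) or LBD38 (adjusted p = 0.488). Without the 2 libraries of unclear label the calls of SPL9 in T12 (adjusted p = 0.0604) and LBD38 in T34 (adjusted p = 0.0943) were lost. The repressors that rose were MYB4, MYB7 and MYB32, related MYB proteins of phenylpropanoid metabolism, with MYB7 at 1.79 ± 0.16 in T12 (adjusted p = 3.91e-05) and 1.95 ± 0.16 in T34 (adjusted p = 1.97e-05). Without those 2 libraries MYB32 did not pass (adjusted p = 0.0659 and 0.0662).

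Markers of tissues that a seedling sample can hold in different shares were measured beside these genes. For the counts that follow, 23.1% of all genes tested were called higher and 17.0% lower in T12 than in WT. In T34 these shares were 25.2% and 20.0%, and 1.52% were called lower in T34 than in T12. The summed normalized counts of 5 shoot markers, among them RBCS1A, were 93790 to 154900 in WT, 97530 to 111800 in T12 and 55720 to 67840 in T34, where 3 of the 5 were called lower than in WT. In T12, RCA was called higher (1.14, adjusted p = 0.000899) and LHCB1.3 lower (-0.88, adjusted p = 0.0158). PSAD-2, a photosystem I subunit, had the largest fall of the 5 in T34 (-1.72 against WT, adjusted p = 0.000211, and -1.33 against T12, adjusted p = 0.0195), and RBCS1A and RCA were also called lower in T34 than in T12. Over the settings 0 to 3 shoot markers were lower in T34 than in T12. PSAD-2 and RCA passed there in 14 of 20 settings each and RBCS1A in 11. The summed counts of 6 root markers, among them the Casparian strip genes CASP1 and CASP2, were 644 to 1134 in WT, 655 to 812 in T12 and 679 to 767 in T34. In each mutant 3 of the root markers were called lower, CASP1, CASP2 and GL2, and in T12 RHD6 was called higher. Over the alternative settings 1 to 3 root markers were lower in T12 and 0 to 3 in T34, where none passed without the 2 libraries of unclear label. CASP2 in T12 passed in 11 of 20 settings and RHD6 in 7. The summed counts of 9 seed storage and oleosin genes were 73.9 to 5692 in WT, 2284 to 5753 in T12 and 12340 to 36400 in T34, with 1 called higher in T12 (OLEO2) and 8 in T34. Over the settings these counts were 1 to 4 and 3 to 9. Between T34 and T12, 0 of the 9 were called higher in the main fit, beside 0.858% of all genes tested, and 0 to 9 over the settings. Without WT replicate 2, CRA1, CRC, OLEO1 and OLEO2 passed in T12, and without the 2 libraries of unclear label OLEO1, OLEO2 and SESA1 passed in T34. The part of these shifts in the rise of the flavonoid genes was not tested.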

How the data were processed

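RNA of whole seedlings was sequenced from libraries made with a stranded kit that removes ribosomal RNA, per the labels' protocols. The submitters' processing notes name the build TAIR10 and, with no order or settings, DESeq2 1.22.2, featureCounts 1.6.2, HISAT2 2.1.0 and cutadapt 1.8.1. Per the file headers the authors deposited 2 tables, T12 against WT and T34 against WT. Each holds a normalized count per library (the deposited signal), the mean over libraries, the statistic of a test (score), its p-value before and after adjustment, and the log2 fold change with an SE, for each of 30271 genes. The WT values and the means were equal in both tables.

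Values of each library were whole multiples of 1 step, the worth of 1 read, for 100% of values at a tolerance of 0.01 reads, and reads were recovered that way. Genes with at least 10 normalized counts in at least 3 libraries were tested with limma-trend (limma 3.58.1, R 4.3.3) on log2(normalized count + 1), all 9 libraries in 1 fit, with Benjamini-Hochberg adjustment over 20871 genes. edgeR 4.0.16, DESeq2 1.42.0 and limma-voom on recovered reads, other pseudocounts, filters and scalings, and each library left out were alternatives. The plan named limma-trend, with a count test as the main test only for raw counts, and the tables hold normalized counts. The steps were tested on simulated data with 1 setting of spread for all genes and few genes changed. These data differ in both, so that test is no support for the members. Counting intervals are exact at 95%, and they and the limit of 3 reads cover counting error only. The members, lists and rules were chosen with earlier results of these data known. The text names all members, from each other list the called gene with the largest change in each direction, activators that passed, and the 10 genes most like the members, and names further list genes (PAL4, CAD4, 3AT2, 5MAT, FLS2 between mutants, MYB4, MYB32, LBD38, MYB114, MYB111 and the like) after their values were seen. Names, overlaps and sequences came from RefSeq's annotation of TAIR10.1, which matched 29991 loci. A marker gene of the root list is not reported here.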

Additional observations from a re-analysis of the deposited data

How the results depend on the processing

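Each result was recomputed under 20 alternatives. All 180 values of the 9 tested genes in T34 against WT and 177 of 180 in T12 against WT kept their direction and stayed past the threshold, and the 3 exceptions were those of CHI given above. In T34 against T12, 178 of 180 kept their direction and stayed short of the threshold, and the number of members called was 1 with limma-voom on the recovered reads and 0 to 1 with a library left out. No direction of these 9 turned. Among the other list genes against WT, those of PAL4 and MYB114 in both mutants turned in at least 1 alternative. So did those of AHA10, CRU2, CRC, SESA1, SESA2, SESA3 and SESA4 in T12 and of CAD4, FLS5 and RCA in T34. None of these was called in the main fit. Sizes depended on the pseudocount: with 16, TT19 came to 2.39 in T12 and 3.28 in T34. Upper quartile scaling moved the median of all genes from 0.06 to -0.04 in T12 and to -0.05 in T34. It turned the split of all calls in T12 from 4827 higher and 3555 lower to 4210 and 4649. In T34 the split turned from 5262 and 4166 to 4557 and 5210. Scaling to other nuclear reads gave 3989 higher and 5082 lower in T12 and 4436 and 5348 in T34. With upper quartile scaling the members' median less that of all genes went from 4.47 to 4.51 in T12. Of the 10 genes most like the members, 1 remained with a pseudocount of 16, 6 without the 2 libraries of unclear label (an alternative chosen after seeing the data), and 6 to 10 with a library left out. Among the regulators in T12, EGL3 passed in 6 of 20 alternatives, MYB32 in 15 and TTG1 in 17. WT replicate 2, with 645093 reads of other nuclear genes, carries no detail below 35.1 normalized counts, its limit of 3 reads. No paired analysis was possible because the labels give no replicate numbers. The cause of these dependences was not tested.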
